A study of Mus musculus with 12 samples.

Results

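The comparison described here is that of cochleae labelled Dusp1-/- (KO) with cochleae labelled wild type (WT) at 20 weeks of age, across all genes. It holds 6 of the 12 libraries of the series, chosen by the genotype and the age on their labels. The KO libraries carry the animal codes E7, F18 and F19 and the WT libraries E1, E3 and E4, and each came from whole cochlea of mice on a mixed 129S2/SvPas:C57BL/6 background. The labels give the age as 5 months, and the other 6 libraries, 3 KO and 3 WT of 8 months (32 weeks), enter the fit and serve as a second look at the same genes. The labels name no treatment, and the sources used here do not say which part of the Dusp1 allele is disrupted. Each group has 3 libraries. The p-values of the fit rest on the spread within the 4 groups of both ages together and on a trend of that spread across genes. They measure no spread beyond these 12 libraries.

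DUSP1 is an inducible phosphatase that switches off the MAP kinases p38, JNK and ERK, and it is known as a brake on stress and inflammatory signalling and as a target gene of glucocorticoids. The cochlea turns sound into nerve signals: hair cells of the organ of Corti release glutamate onto spiral ganglion neurons, while the stria vascularis and the spiral ligament keep up the potassium-rich fluid that drives the hair cells. The organ lies in bone, with marrow, small muscles, nerve roots and the brain close by.

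Reads of polyA RNA were given as FPKM, fragments scaled to the length of the transcript and to the mapped reads of the library. Of the 23949 genes read, limma tested the 16277 that averaged 0.5 FPKM or more across the 12 libraries, on log2(FPKM + 0.5). Differences below are KO minus WT on that scale, ± is the standard error of the fit, and adjusted p is the Benjamini-Hochberg value across the tested genes. Values in FPKM are listed in the order E1, E3, E4 for WT and E7, F18, F19 for KO. The number of reads per library is unknown, and FPKM per library summed to between 501193 and 556791. The worth of a single read, taken from low values, lay between 0.901 and 1.04 of that in E1. The library labelled E4 alone carried Xist, the transcript of the inactive X chromosome (52.4 FPKM, against at most 0.0726 in the other 5), so the groups also differ in the sex of 1 WT animal.

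The libraries were recognisable as cochlea. Otos and Coch, secreted proteins of the spiral ligament, stood at 1474 to 2471 FPKM and 2112 to 2964 FPKM over the 6 libraries. Gjb2, the connexin of supporting cells and fibrocytes, lay between 302 and 398 FPKM, and Kcne1, a subunit of the potassium channel of the stria, between 28.4 and 45.8 FPKM. Ocm, a calcium buffer of outer hair cells, ranged from 46.9 to 74.8 FPKM. None of these 5 genes separated the groups.

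Several libraries stood apart before any genotype was considered. In the first principal component of the 6 libraries, which held 34.4% of the variance, WT scored from −38.7 to −25.9, while KO scored 58.0 for E7, 21.3 for F18 and 23.4 for F19. The second component held 22.8% and set F18 apart with a score of 57.5. E1 carried genes of the cerebellum, E3 and F18 genes of skeletal muscle, F18 genes of fat, and E7 the highest levels of marrow genes, each described below with its values.

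Transcripts of the targeted gene were not lower in the libraries labelled KO. Dusp1 on chromosome 17 (mm9 chr17:26642536-26645417, minus strand, 4 exons) stood at 60.8, 47.6 and 29.5 FPKM in WT and 61.9, 81.5 and 75.3 in KO. The lowest KO value lay just above the highest WT value, and the spread among WT libraries was wider than that gap. The difference was 0.71 ± 0.23 (adjusted p = 0.198, limma), and the exact permutation p of 0.1 is the smallest that 3 against 3 libraries can give. At 32 weeks Dusp1 was again higher in KO without overlap, by 0.62 (adjusted p = 0.939, limma). It stood there at 43.0, 38.3 and 38.6 FPKM in WT (F1, F10, F12) and 55.6, 73.8 and 57.1 in KO (F5, F6, F27). Since the disrupted part of the allele is not given, a value for the whole gene could not check the labels. KO and WT mean the labelled genotype in every direction given here.

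Few genes passed the adjusted threshold of 0.05. In KO 4 rose (0.0246% of the tested genes) and 7 fell (0.0430%), 11 in all (0.0676%). Without adjustment, 1339 genes were higher (8.23%) and 1614 lower (9.92%) at p under 0.05, 2953 in all (18.1%). The 3 KO values all exceeded the 3 WT values, without overlap, in 1833 genes (11.3%), and all lay below them in 2239 (13.8%). When E1 and E7 were both left out, a choice made after seeing the data, limma gave 5 genes higher and 1 lower after adjustment, and 348 higher and 651 lower without adjustment. Large differences were mostly in one direction: of the 11360 genes that averaged 5 FPKM or more, 212 were higher by 1 or more on the log2 scale without overlap and 19 were lower by as much. The median difference of all tested genes was −0.03.

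Of the 4 genes that rose, 3 are short microRNA genes that were listed at 0 in each WT library, so no fold can be given. Their mature sequences, and that of Mir1892, which had the largest difference of any gene that averaged 5 FPKM or more, are shown because the values belong to loci of few bases. Capitals mark the seed, bases 2 to 8, which pairs with target messages. The FPKM are of polyA reads at the whole gene, and the level of the mature microRNAs was not measured. The sequences are those of RefSeq (table of build GRCm38.p6), and the same letters were found at these genes in mm9.
mmu-miR-7067-3p: uGAUUGCUucccuccccacag
mmu-miR-7067-5p: uGCAGGGGgugguugcacacgga
mmu-miR-8116: aAGGAUCCggggcuaguuggc
mmu-miR-760-3p: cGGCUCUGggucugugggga
mmu-miR-760-5p: cCCCUCAGgccaccagagcccgg
mmu-miR-1892: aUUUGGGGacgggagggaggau
The 6 mature sequences carry 6 different seeds.

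Mir7067 (chr8:73419407-73419469, minus strand, 63 bases) stood at 100.3, 54.2 and 47.2 FPKM in KO (adjusted p = 1.22e-05, limma). Mir8116 (chr5:137735008-137735104, plus strand, 97 bases) lies in an intron of Ache, the acetylcholinesterase gene, on the same strand. It stood at 36.1, 39.7 and 46.5 FPKM in KO (adjusted p = 6.41e-05, limma), with Ache at 25.6 to 28.1 in WT and 20.5 to 30.2 in KO. Mir760 (chr3:121996503-121996621, minus strand, 119 bases) overlaps no other annotated gene and stood at 6.51, 14.9 and 6.26 FPKM in KO (adjusted p = 0.00569, limma). For none of the 3 did the groups overlap, and Ache did not separate them.

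Such short genes are read unsteadily here. Of 344 microRNA genes tested, 289 were listed at 0 in at least 1 of the 6 libraries, 3 were at 0 in all WT and above 0 in all KO libraries, and 0 were the reverse. Without overlap, 10 were higher in KO and 9 lower. Among the 432 genes whose longest transcript is under 200 bases, 6.94% did not overlap between the groups, against 25.5% of the other 15845. Mir1892 (chr12:55746920-55746999, minus strand, 80 bases), within an exon of Sptssa, shows the pattern: 0.00145, 0.00224 and 0.00605 FPKM in WT and 150.4, 53.3 and 67.7 in KO, with an adjusted p of 0.147 by limma. Sptssa stood at 90.9 to 115 FPKM in WT and 92.4 to 106 in KO, so the estimate for the microRNA gene moved between libraries while the message around it did not separate them. At the other end, the small nucleolar RNA gene Snord4a stood at 233, 117 and 57.3 FPKM in WT and 55.0, 0 and 0 in KO (adjusted p = 0.273, limma), a pair of groups that barely parted.

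The fourth gene that rose, Gm10653, is a spliced transcript without a known product (chr9:62689284-62709831, minus strand, 4 exons). It stood at 3.30, 3.18 and 2.75 FPKM in WT and 13.1, 10.7 and 9.70 in KO, a rise of 1.70 ± 0.11 (adjusted p = 0.000164, limma). The lowest KO library held clearly more than the highest WT library. Its exons overlap those of Cln6 and Calml4 on the opposite strand. These neighbours stood at 10.2 to 11.2 FPKM and 29.4 to 36.7 FPKM in WT, and 11.1 to 12.6 FPKM and 22.6 to 32.3 FPKM in KO, and neither passed p under 0.05.

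The 7 genes that fell were moderately expressed and fell by less than 1 on the log2 scale each. Zfp365, known for limiting damage at stalled replication forks and active in neurons, stood at 8.96, 8.58 and 7.55 FPKM in WT and 5.33, 4.91 and 5.15 in KO (−0.65 ± 0.08, adjusted p = 0.0287, limma). Gdap1, a mitochondrial outer membrane protein of nerve, stood at 22.5, 20.9 and 18.4 FPKM in WT and 13.6, 12.1 and 14.2 in KO (−0.61 ± 0.08, adjusted p = 0.0446). Rab30, a small GTPase of the Golgi, had 15, 14.5 and 12.5 FPKM in WT and 7.97, 7.94 and 9.38 in KO (−0.70 ± 0.10, adjusted p = 0.0446). In each of the 3, E4 was the lowest of WT and still above every KO library. Ddah1, which breaks down an inhibitor of nitric oxide synthase, had 24.7, 26.6 and 25.9 FPKM in WT and 17.3, 18.6 and 18.8 in KO (−0.49 ± 0.07, adjusted p = 0.0446). Cpxm1, a secreted protein of the carboxypeptidase family, had 44.8, 38.6 and 44.7 FPKM in WT and 30.7, 27.5 and 30.8 in KO (−0.52 ± 0.07, adjusted p = 0.0476). The libraries of each group lay close together for both.

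Ergic1, a membrane protein that cycles between the endoplasmic reticulum and the Golgi, is a close neighbour of the targeted gene (chr17:26698457-26793878, plus strand, 0.102 Mb from Dusp1). It stood at 46.2, 44.3 and 45.4 FPKM in WT and 33.1, 35.5 and 34.3 in KO (−0.40 ± 0.05, adjusted p = 0.0287, limma). The smallest fall of the 7 was thus also the one with the tightest groups. The transcript 6330403K07Rik (chr11:70845443-70847119, minus strand) had 10.2, 13.4 and 11.7 FPKM in WT and 5.67, 5.49 and 5.74 in KO (−0.99 ± 0.14, adjusted p = 0.0446), the largest fall of the 7. These 7 calls were near the threshold: without E1, without E7, without F19 or without F12 limma called 0 genes lower, with 911 or more still lower at the unadjusted threshold in every fit that left out 1 library.

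**Figure D1:**
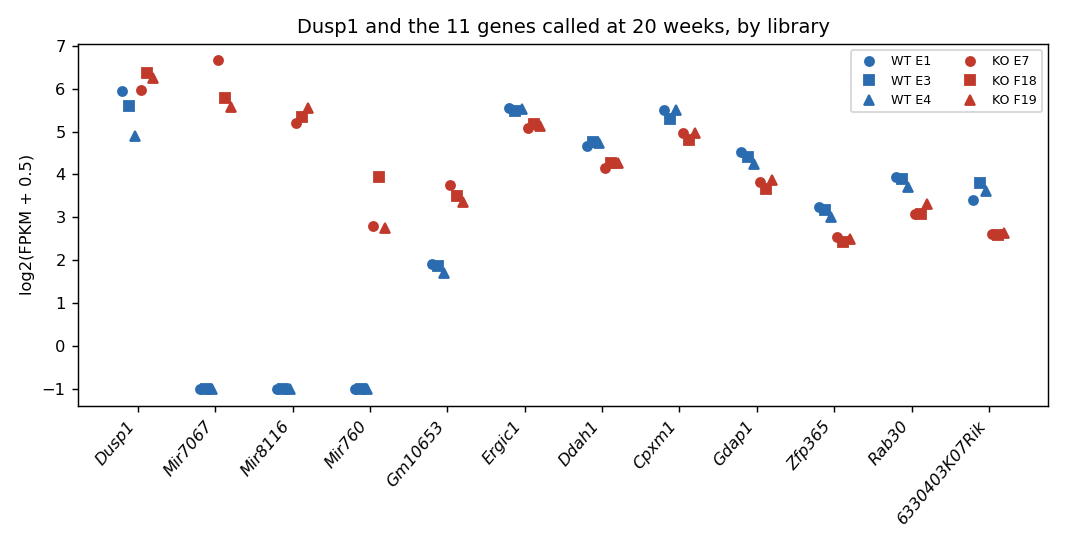
Level of Dusp1 and of the 11 genes that passed the adjusted threshold at 20 weeks, as log2(FPKM + 0.5) on the vertical axis, with 1 point per library (WT blue, KO red, n = 3 each). The 3 microRNA genes lie at the floor in WT, Gm10653 is higher in KO, and the 7 genes on the right are lower in every KO library, while Dusp1 nearly overlaps.

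The genes next in line by p had groups as well separated and missed the adjusted threshold. Hs3st6, a heparan sulfate sulfotransferase, stood at 9.23, 11.8 and 14.4 FPKM in WT and 23.0, 22.1 and 21.8 in KO (0.91 ± 0.14, adjusted p = 0.0618, limma). It lies 1.75 Mb before Dusp1 on chromosome 17. Prickle3, a planar cell polarity protein, had 7.88, 8.36 and 8.13 FPKM in WT and 14.6, 12.3 and 12 in KO (0.64 ± 0.10, adjusted p = 0.0618). Xaf1, an apoptosis factor induced by interferon, had 12.5, 5.27 and 6.09 FPKM in WT and 24.8, 22.2 and 30.8 in KO (1.73 ± 0.33, adjusted p = 0.118). WT library E1 stood above the other WT libraries for Xaf1, below every KO library. On the lower side, Phyhipl, which is active in nerve, had 39.1, 36.9 and 39.2 FPKM in WT and 27.4, 25.1 and 27.4 in KO (−0.52 ± 0.08, adjusted p = 0.0618). Decr2, a peroxisomal enzyme of fatty acid breakdown and another neighbour of Dusp1 on chromosome 17, had 26, 26.6 and 28 FPKM in WT and 15.5, 19.6 and 14.7 in KO (−0.69 ± 0.11, adjusted p = 0.0618).

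Genes of the blood-forming marrow were the largest group of higher genes in KO, and their levels were graded by library. Lists of marker genes are described by counts and medians only, since genes of a list share the libraries. For every list, the shares over all tested genes at 20 weeks were 8.23% higher and 9.92% lower at p under 0.05. Without overlap they were 11.3% higher and 13.8% lower. Of 24 tested genes of mature neutrophils, 22 were higher at p under 0.05 (background 8.23%), 0 passed after adjustment, and the median difference was 2.27. S100a8, a calcium-binding protein that fills the neutrophil cytosol, stood at 274, 289 and 24.8 FPKM in WT and 10380.0, 1719 and 3229 in KO (4.94 ± 1.33, adjusted p = 0.172, limma). E7 was far above the other KO libraries, and E4 far below the other WT libraries. In 22 of the 24 genes E7 was the highest of KO, in 23 F18 was the lowest, and in 20 E4 was the lowest of WT. Across all tested genes E7 was the highest of KO in 5679 and F18 the lowest in 8423. The 24 genes summed to 599, 623 and 157 FPKM in WT and 18338, 3337 and 5946 in KO, and without E7 the median difference was 1.84. In tissue read as a whole, fewer cells of a type and less RNA per cell cannot be told apart.

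Neutrophil genes of earlier stages had the same order of libraries. Elane, the elastase of primary granules made in marrow promyelocytes, stood at 2.38, 3.19 and 0.190 FPKM in WT and 219.8, 48.1 and 83.0 in KO. Ngp, a protein of secondary granules, had 33.6, 28.5 and 3.05 FPKM in WT and 1745, 334 and 531 in KO (5.48 ± 1.25, adjusted p = 0.147, limma). Both are made by precursors and little by circulating cells, and in both E4 was lowest and E7 highest of the 6 libraries. Of the secondary granule list 15 of 17 tested genes were higher at p under 0.05, with a median of 2.82, the highest of the 50 lists drawn up. Of the primary granule list 9 of 14 were higher, with a median of 2.50. Plac8, of monocytes and other myeloid cells, had 4.34, 2.39 and 1.88 FPKM in WT and 134, 32.9 and 52.4 in KO (4.27 ± 0.98, adjusted p = 0.147).

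Eosinophil genes were higher in KO, and mast cell and basophil genes went both ways. Prg2, the major basic protein of eosinophils, stood at 2.51, 4.34 and 1.29 FPKM in WT and 356, 98.8 and 176 in KO (5.96 ± 1.35, adjusted p = 0.147, limma). Ear1, an eosinophil ribonuclease, had 0.416, 0.747 and 0.105 FPKM in WT and 67.1, 18.5 and 36.9 in KO. Their KO order, E7 above F19 above F18, was that of the neutrophil genes. Cpa3, the carboxypeptidase of mast cells, had 3.94, 4.65 and 1.39 FPKM in WT and 3.52, 2.84 and 2.14 in KO, and Mcpt4, a mast cell chymase, had 8.94, 10.2 and 3.39 in WT and 2.65, 6.25 and 2.44 in KO. Both overlapped between the groups. Tpsab1, a mast cell tryptase whose gene lies near Dusp1, had 0.390, 0.374 and 0.147 FPKM in WT and 0.840, 1.52 and 1.59 in KO, and Prss34, a protease of basophils and mast cells, 0.291, 0.283 and 0 in WT and 19, 2.82 and 3.93 in KO. These did not overlap. The shared list of eosinophil, basophil and mast cell genes had 9 of 18 higher at p under 0.05 and a median of 1.16.

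The red cell and platelet lists differed in the order of F18 and F19. Of 36 red cell lineage genes, 24 were higher at p under 0.05, with a median of 1.70 (1.26 without E4 and 2.04 without E1). Hbb-b1, an adult beta globin, stood at 1933, 1024 and 684 FPKM in WT and 3605, 2787 and 1889 in KO, so that E1 overlapped with F19. E1 was the highest of WT, as it was in 27 of the 36. Unlike Hbb-b1, the red cell list had F19 above F18, with a mean over WT of 2.19 in E7, 1.12 in F18 and 1.41 in F19. F18 was the lowest of KO in 25 of the 36. Of 25 megakaryocyte and platelet genes, 22 were higher at p under 0.05, with a median of 2.03 (1.51 without E7). Ppbp, a chemokine of platelet granules, had 8.07, 9.54 and 4.55 FPKM in WT and 421, 134 and 73.9 in KO (4.41 ± 1.01, adjusted p = 0.147, limma). Tubb1, the tubulin of the platelet rim, had 0.523, 0.619 and 0.790 FPKM in WT and 36.0, 10.2 and 6.82 in KO. Here F18 stood above F19, the reverse of the neutrophil genes: the list's mean over WT was 3.08 in E7, 1.64 in F18 and 1.29 in F19.

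B cell genes were higher in a similar grade, and T cell genes less so. Of 21 tested genes of mature B and plasma cells 13 were higher at p under 0.05, with a median of 1.39, and of 20 genes of B cell precursors 13, with a median of 1.00. Cd79a, part of the B cell receptor, stood at 5.86, 3.40 and 2.35 FPKM in WT and 34.8, 7.11 and 21.9 in KO. F18 lay just above E1, the closest approach of the groups. The surrogate light chain gene Vpreb1, used only by precursors, had 0.430, 0.527 and 0 FPKM in WT and 3.44, 0.543 and 3.45 in KO. Among 18 genes of T and NK cells 7 were higher, with a median of 0.24 (0.08 without E3 and 0.40 without E4).

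Of 32 genes of resident macrophages tested, 6 were higher and 1 lower at p under 0.05, with a median of 0.12 (0.07 without E7). Csf1r, the receptor that macrophages depend on, stood at 29.2, 25.9 and 33.1 FPKM in WT and 35.4, 29.1 and 27.6 in KO. Cx3cr1, the fractalkine receptor, had 9.91, 7.69 and 11.6 FPKM in WT and 10.4, 8.17 and 7.55 in KO, and C1qa, a complement subunit made by macrophages, 60.5, 52.0 and 70.1 in WT and 75.1, 68.1 and 60.7 in KO. The groups overlapped in each. Cd209f, a lectin of a tissue macrophage subset, was the member lower in KO, at 2.05, 2.67 and 2.31 FPKM in WT and 0.846, 0.819 and 1.10 in KO (−1.0 ± 0.18, adjusted p = 0.115, limma). Cx3cl1, the ligand of Cx3cr1, made by neurons and endothelium, had 31.4, 28.4 and 32.3 FPKM in WT and 22.9, 24.5 and 24.4 in KO (−0.35 ± 0.08, adjusted p = 0.151). Tyrobp, a signalling adaptor that circulating myeloid cells also use, was higher, at 71.7 to 74.7 FPKM in WT and 297, 111 and 154 in KO.

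**Figure D2:**
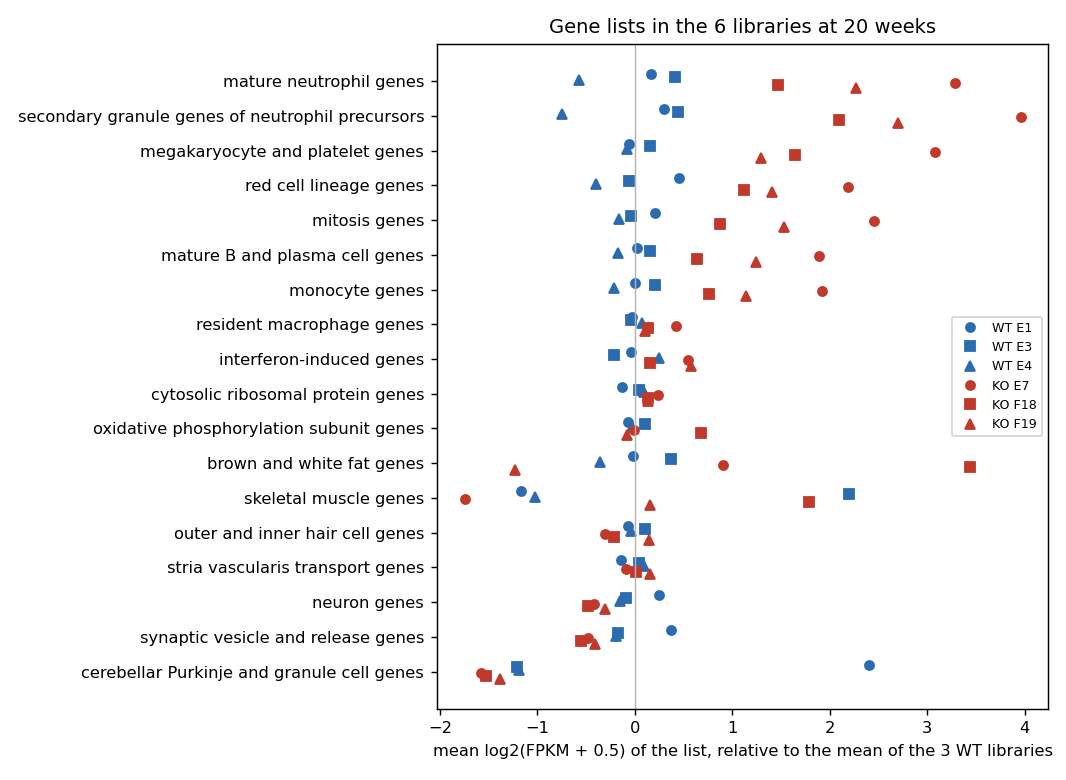
Mean log2(FPKM + 0.5) of 18 gene lists in each of the 6 libraries, relative to the mean of the 3 WT libraries (WT blue, KO red). Marrow and mitosis lists are graded E7 highest among KO, the fat list is high in F18, muscle in E3 and F18, the cerebellar list in E1, and neuron and synapse lists lie below every WT library in all 3 KO libraries.

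Genes of dividing cells followed the marrow genes. Of 51 mitosis genes, 48 were higher at p under 0.05 and all 51 lay above 0, with a median of 1.51 (1.19 without E7 and 1.90 without F18). E7 was the highest and F18 the lowest of KO in 51 of 51. Mki67, a protein of cycling nuclei, stood at 0.847, 0.417 and 0.375 FPKM in WT and 16.2, 3.17 and 7.17 in KO (2.92 ± 0.98, adjusted p = 0.203, limma). Bub1b, of the spindle checkpoint, had 1.01, 0.70 and 0.708 FPKM in WT and 6.75, 2.48 and 3.67 in KO (1.79 ± 0.46, adjusted p = 0.162). The cochlea of an adult mouse holds few dividing cells, and levels in WT were near 1 FPKM. Of 43 DNA replication genes 28 were higher at p under 0.05, with a median of 0.68. Mcm5, of the replicative helicase, had 3.70, 3.31 and 3.54 FPKM in WT and 17.3, 6.36 and 8.80 in KO (1.38 ± 0.50, adjusted p = 0.221). The part of marrow cells in these counts was not tested.

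Of 24 osteoblast and osteocyte genes 0 were higher and 1 lower at p under 0.05, with a median of −0.05 (0.09 without E4), and the adjusted test called none. Col1a1, the main collagen of bone, stood at 128, 87.8 and 142 FPKM in WT and 117, 148 and 99.9 in KO. Of 14 osteoclast genes, cells that share a lineage with monocytes, 5 were higher and 1 lower, with a median of 0.35 (0.23 without E7). Acp5, their acid phosphatase, had 52.5, 54.4 and 83.1 FPKM in WT and 84.6, 109 and 79.1 in KO, overlapping by a narrow margin. Of 32 collagen and matrix genes 2 were lower, and 9 were lower without overlap (background 13.8%). Fmod, fibromodulin, a proteoglycan that shapes collagen fibrils, had 92.1, 65.9 and 57.8 FPKM in WT and 36.4, 37.5 and 42.0 in KO (−0.86 ± 0.18, adjusted p = 0.146, limma).

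A list of brown and white fat genes, drawn up after the values were seen, marked the library F18. Ucp1, the uncoupling protein of brown fat, stood at 21.8, 20.5 and 6.34 FPKM in WT and 57.0, 517 and 0.269 in KO. Fabp4, the fatty acid binding protein of fat cells, had 178, 241 and 78.5 FPKM in WT and 428, 3430.0 and 38.4 in KO. F18 was the highest of the 6 libraries for both and F19 the lowest. The 20 genes summed to 813, 1152 and 676 FPKM in WT and 1515, 9556 and 478 in KO, and F18 was the highest of KO in 20 of 20. The group values of these genes overlapped throughout, and 0 of the 20 reached p under 0.05 in limma.

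Genes of energy metabolism were higher in F18 and level in the other KO libraries. Of 84 genes for subunits of oxidative phosphorylation 78 lay above 0, with a median of 0.19, yet 0 were higher and 2 lower at p under 0.05. Atp5b, a subunit of ATP synthase, stood at 799, 833 and 773 FPKM in WT and 793, 1315 and 734 in KO. Cox4i1, of cytochrome c oxidase, had 681, 717 and 693 FPKM in WT and 706, 1030.0 and 653 in KO. F18 was the highest of KO in 81 of the 84 genes, and without F18 the median was −0.04. The 76 mitochondrial ribosomal protein genes had a median of 0.10 and F18 highest in 70, and without F18 their median was 0.00. Of 28 genes of mitochondrial biogenesis 2 were higher (background 8.23%) and 2 lower (background 9.92%), with a median of 0.03 (−0.06 without F18). The part of fat tissue in these values was not tested.

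Enzymes that regenerate NADPH were higher in KO with F18 or E7 in the lead. Of 14 genes of the pentose phosphate pathway and of other NADPH sources 8 were higher at p under 0.05 (background 8.23%). Their median was 0.49 (0.35 without F18), and 9 were higher without overlap (background 11.3%). Pgd, phosphogluconate dehydrogenase, stood at 42.5, 42.6 and 41.4 FPKM in WT and 83.3, 84.5 and 56.3 in KO (0.79 ± 0.18, adjusted p = 0.146, limma). G6pdx, which opens the pathway, had 33.7, 30.7 and 31.4 FPKM in WT and 52.0, 52.2 and 40.9 in KO (0.58 ± 0.12, adjusted p = 0.146). WT libraries agreed closely for both, and F19 was the lowest of KO. Tkt, transketolase, had 67.0, 67.4 and 73.4 FPKM in WT and 114, 241 and 82.9 in KO (0.92 ± 0.34, adjusted p = 0.221), with the fat-rich library F18 far above the others. At 32 weeks 0 of the 14 passed p under 0.05, where 2.21% of all tested genes were higher and 2.97% lower.

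Skeletal muscle genes varied within both groups. Acta1, the actin of skeletal muscle, stood at 4.04, 228 and 3.92 FPKM in WT and 0.641, 188 and 27 in KO, and Ckm, muscle creatine kinase, at 2.08, 207 and 2.83 in WT and 0.431, 134 and 20.9 in KO. E3 and F18 were high in both genes, 1 library of each group. The list summed to 94.1, 2060 and 101 FPKM in WT and 59.9, 1485 and 301 in KO, and 0 of 26 genes passed p under 0.05, with a median of 0.06 (−0.81 without F18 and 1.47 without E3).

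The WT library E1 carried genes of the cerebellum. Pcp2, a protein of Purkinje cells, stood at 186, 2.03 and 1.60 FPKM in WT and 1.14, 1.39 and 1.59 in KO. Gabra6, a GABA receptor subunit of cerebellar granule cells, had 43.0, 0.0891 and 0.139 FPKM in WT and 0, 0 and 0.0489 in KO. The other 5 libraries held little of either, and both differences rested on E1. Rgs8, a regulator of G protein signalling, had 29.5, 2.23 and 1.65 FPKM in WT and 0.685, 0.902 and 0.570 in KO (−2.21 ± 0.80, adjusted p = 0.221, limma). In a list of 15 cerebellar genes drawn up after the values were seen, E1 was the highest of WT in 15 of 15, the summed level was 676 FPKM in E1 and 98.7 to 125 in the other 5 libraries, and the median difference of −1.59 was −0.28 without E1.

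**Figure D3:**
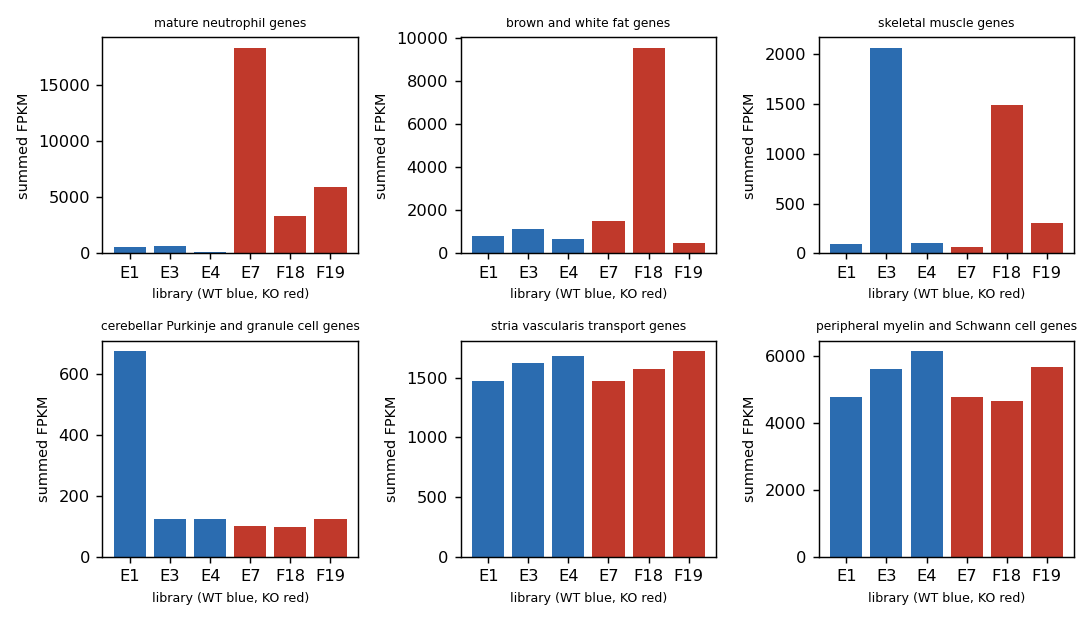
Summed FPKM of 6 gene lists in each library (WT blue, KO red; bars start at 0, with a scale of its own for each panel). Neutrophil genes were highest in E7, fat genes in F18, muscle genes in E3 and F18 and cerebellar genes in E1, whereas stria genes and peripheral myelin genes varied little between libraries.

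Genes of neurons were lower in all 3 KO libraries. Of 43 neuron genes 24 were lower and 0 higher at p under 0.05 (background 9.92% lower), 26 were lower without overlap (background 13.8%), and the median was −0.34. Slc17a6, the vesicular glutamate transporter of spiral ganglion and central neurons, stood at 22.6, 29.8 and 26.6 FPKM in WT and 17.5, 16.8 and 18.5 in KO (−0.56 ± 0.10, adjusted p = 0.111, limma). Here E1 was the lowest of WT, whereas it was the highest of WT in 28 of the 43 genes (38.8% over all tested genes). Eno2, the neuronal enolase, had 182, 162 and 164 FPKM in WT and 129, 122 and 144 in KO (−0.36 ± 0.08, adjusted p = 0.147). Both of these genes were lower in every KO library than in every WT library.

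Synaptic genes behaved alike. Of 39 genes of synaptic vesicles and release 26 were lower and 0 higher at p under 0.05, with a median of −0.44. Snap25, a SNARE protein of vesicle fusion, stood at 698, 631 and 626 FPKM in WT and 466, 439 and 493 in KO (−0.48 ± 0.09, adjusted p = 0.115, limma). E1 was the highest WT library, as it was in 33 of the 39 genes, and E3 and E4 also lay above every KO library for Snap25. Of 35 transmitter receptor genes 16 were lower, with a median of −0.48, and of 50 voltage-gated ion channel genes 22, with a median of −0.34. Gria2, an AMPA receptor subunit, had 27.7, 9.14 and 9.28 FPKM in WT and 6.31, 5.84 and 6.54 in KO (−1.04 ± 0.34, adjusted p = 0.202), a difference carried in large part by E1. Scn8a, the sodium channel of axon nodes, had 19.2, 15.2 and 16.7 FPKM in WT and 12.9, 11.8 and 13.1 in KO (−0.41 ± 0.12, adjusted p = 0.184).

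Leaving out E1 made these medians smaller and left their sign: −0.27 for neuron genes, −0.30 for synaptic genes, −0.31 for receptors and −0.24 for channels, against a median of −0.03 for all tested genes. Without E1 the mean levels of E3 and E4 were −0.09 and −0.15 for neuron genes, against −0.42, −0.48 and −0.31 in E7, F18 and F19, each relative to the mean of the 3 WT libraries. Of 25 myelin genes of peripheral nerve 0 passed p under 0.05 and the median was −0.10, which became −0.20 without E1, −0.24 without F19 and −0.01 without F18. Genes of central glia and brainstem had 1 of 25 higher and 6 lower, with a median of −0.53 (−0.33 without E1). Gfap, of astrocytes, had 70.3, 52.9 and 99.5 FPKM in WT and 47.6, 39.8 and 64.3 in KO. Nerve tissue of central origin thus varied between the libraries, and its part in the lower neuron genes was not tested.

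Few genes of cochlear epithelia passed p under 0.05. Of 36 hair cell genes 1 was higher and 0 lower at p under 0.05, with a median of −0.16 (−0.32 without F19 and −0.07 without E7). Otof, otoferlin of the hair cell synapse, stood at 8.84, 9.63 and 8.45 FPKM in WT and 5.88, 6.25 and 11 in KO, and Espn, an actin bundler of stereocilia, at 9.88, 10.2 and 9.19 in WT and 6.55, 6.85 and 13.2 in KO. E7 and F18 lay below WT and F19 above it for both, a split seen across the list, whose mean over WT was −0.31, −0.21 and 0.15 in E7, F18 and F19. The member that was higher, Myo7a, a myosin of stereocilia that other tissues also use, had 3.07, 3.21 and 3.27 FPKM in WT and 5.74, 4.64 and 7.06 in KO (0.76 ± 0.16, adjusted p = 0.146, limma). Of 28 supporting cell and tectorial membrane genes 1 was higher, Cd44, a surface receptor that blood cells also carry, at 14.4, 18 and 17.4 FPKM in WT and 31.5, 20.3 and 22.2 in KO. Tecta, a protein of the tectorial membrane, had 4.21, 4.25 and 3.71 FPKM in WT and 2.88, 3.32 and 6.01 in KO. Of 22 stria genes 0 passed, with a median of 0.05 (−0.05 without E1 and −0.02 without F19), and Slc12a2, the cotransporter that loads the stria with potassium, had 127, 158 and 157 FPKM in WT and 132, 152 and 178 in KO. Pigment cell genes had 1 of 13 lower and spiral ligament genes 1 of 17 lower, and endothelial genes had 3 of 24 lower, with medians of 0.08 (−0.07 without E1 and 0.22 without E7), −0.09 (−0.01 without F19) and −0.02 (−0.12 without F18 and 0.04 without F19).

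Among the relatives and targets of DUSP1, 4 of 9 tested MAP kinase phosphatase genes were higher at p under 0.05, with a median of 0.27 (0.10 without F18 and 0.48 without E1). Besides Dusp1, Dusp2, which is made by activated blood cells, stood at 0.664, 0.946 and 0.685 FPKM in WT and 4.13, 1.65 and 2.42 in KO (1.29 ± 0.39, adjusted p = 0.191, limma). Its KO order was that of the marrow genes. Dusp6, an ERK phosphatase induced by ERK itself, had 17.6, 20.2 and 20.5 FPKM in WT and 21.9, 27.9 and 21.3 in KO (0.27 ± 0.10, adjusted p = 0.221), nearly touching. Of 29 genes of the MAP kinase cascades 5 were higher (background 8.23%) and 6 lower (background 9.92%), with a median of 0.02 (−0.02 without E3). Mapk10, the JNK gene of neurons, had 24.6, 25.5 and 23.6 FPKM in WT and 18.2, 17.5 and 19.9 in KO (−0.40 ± 0.09, adjusted p = 0.147). Mapk8, which encodes JNK of most cells, was lower as well, at 10.3, 10.1 and 8.80 FPKM in WT and 7.67, 7.67 and 8.54 in KO (−0.27 ± 0.09, adjusted p = 0.198). Mapk13, a p38 gene, had 6.10, 6.83 and 6.20 FPKM in WT and 14.2, 8.00 and 11.3 in KO (0.73 ± 0.19, adjusted p = 0.168, limma). It lies on chromosome 17, 2.27 Mb from Dusp1, and its KO order was that of the neutrophil genes. At 32 weeks its groups overlapped. Mapkapk2, a kinase that p38 activates, had 31.6, 37.1 and 36.8 FPKM in WT and 50.9, 49.7 and 41.0 in KO (0.42 ± 0.11, adjusted p = 0.167). Mapk10 and Mapk8 were thus below and Mapk13 and Mapkapk2 above WT in every KO library.

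A minority of immediate early genes were higher in KO. Of 24, 7 were higher and 0 lower at p under 0.05 (background 8.23% and 9.92%), 9 lay below 0, and the median was 0.11. It was 0.19 without E1, and 0.01 with the letter of the animal code as a covariate, a fit that sets E7 alone against WT. Zfp36, which speeds the decay of cytokine messages, stood at 23.9, 27.9 and 23.0 FPKM in WT and 34.5, 29.9 and 33.1 in KO (0.38 ± 0.10, adjusted p = 0.163, limma). Atf3, a stress-induced transcription factor, had 3.36, 3.58 and 4.27 FPKM in WT and 4.57, 6.79 and 5.68 in KO (0.53 ± 0.17, adjusted p = 0.196). Neither overlapped. Of 19 glucocorticoid response genes 4 were higher, with a median of 0.21 (0.12 without E1). Fkbp5, a chaperone induced by the glucocorticoid receptor, had 15.3, 11.9 and 10.7 FPKM in WT and 16.7, 15.3 and 29.4 in KO, where F19 stood apart from the rest. Fkbp5 lies on chromosome 17 near Dusp1. Of 19 clock genes 1 was higher, Per2, at 9.14, 8.62 and 8.51 FPKM in WT and 12.1, 11.2 and 14.5 in KO, and 3 were lower, among them Rora, at 15.6, 9.95 and 11 in WT and 7.72, 7.99 and 9.37 in KO (−0.49 ± 0.18, adjusted p = 0.218).

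Immune genes were graded in other ways. Of 41 interferon-induced genes 40 lay above 0 and 13 were higher at p under 0.05, with a median of 0.38. F18 was the lowest of KO in 34 of the 41, and WT library E4 lay above the other WT libraries in the mean of the list, so Ifit1, an inhibitor of viral translation, overlapped at 12.9, 15.1 and 28.1 FPKM in WT and 20.5, 14.7 and 28.8 in KO. At 32 weeks 24 of the 41 were higher at p under 0.05 (background 2.21% at that age), with a median of 0.53. Of 38 cytokine and inflammasome genes 16 were higher and 2 lower. Il1b, interleukin 1 beta, had 1.27, 2.21 and 1.69 FPKM in WT and 5.17, 4.82 and 4.82 in KO (1.31 ± 0.37, adjusted p = 0.179, limma), even across the KO libraries and unlike the marrow genes. Il18, a cytokine that inflammasomes release, was lower at 19.5, 21.9 and 21.3 FPKM in WT and 15.2, 18.4 and 16.4 in KO (−0.32 ± 0.11, adjusted p = 0.207). Among complement genes 4 of 22 were higher and 1 lower. C3, the central component, had 8.71, 9.21 and 10.5 FPKM in WT and 35.6, 44.1 and 16.0 in KO (1.58 ± 0.43, adjusted p = 0.174), with F18 highest.

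Antioxidant genes were mixed, beside a background of 8.23% higher and 9.92% lower at p under 0.05. Of 26 genes of glutathione synthesis, recycling and peroxidases 2 were higher and 4 lower at p under 0.05, with a median of 0.06 (0.01 without F18). Gpx1, glutathione peroxidase 1, stood at 144, 145 and 137 FPKM in WT and 334, 267 and 220.1 in KO (0.92 ± 0.28, adjusted p = 0.191, limma). Gsr, glutathione reductase, had 17.6, 16.8 and 15.2 FPKM in WT and 44.3, 22.0 and 28.1 in KO (0.85 ± 0.34, adjusted p = 0.239). Gsr had the KO order of the neutrophil genes, and both were highest in E7. Ggt7, of the gamma-glutamyltransferase family, was lower at 24.7, 21.5 and 21.8 FPKM in WT and 16.4, 15.5 and 16.9 in KO (−0.46 ± 0.08, adjusted p = 0.111). Of 29 genes for superoxide and peroxide defence and NRF2 targets 3 were higher and 0 lower, with a median of 0.10 (0.02 without F18), and of 22 glutathione S-transferase genes 3 were higher and 1 lower, with a median of −0.05 (0.05 without E7). NADPH oxidase genes, used by neutrophils and monocytes, had 6 of 11 higher and a median of 0.96. That median became 0.07 when every gene with a mean above 0 was kept. With the letter as a covariate, which sets E7 alone against WT, it was 1.54. Ncf4, a cytosolic subunit of phagocytes, had 3.62, 4.14 and 3.70 FPKM in WT and 47.3, 12.8 and 18.5 in KO (2.41 ± 0.75, adjusted p = 0.197), again in the order of the neutrophil genes.

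Lists of DNA repair, cell death and protein synthesis had medians slightly above 0. Of 59 repair and checkpoint genes 10 were higher and 0 lower at p under 0.05 (background 8.23% and 9.92%). Of the 59, 17 lay below 0, and the median was 0.12 (0.07 without E7). Ung, the glycosylase that removes uracil from DNA, stood at 1.93, 1.73 and 2.38 FPKM in WT and 4.24, 4.28 and 3.93 in KO (0.89 ± 0.14, adjusted p = 0.0618, limma). Mgmt, which repairs alkylated guanine, had 3.97, 4.30 and 4.30 FPKM in WT and 8.11, 7.42 and 5.75 in KO (0.68 ± 0.12, adjusted p = 0.115). Ung was even across KO libraries, whereas the histone gene H2afx followed the marrow order at 14.2, 14.2 and 14.2 FPKM in WT and 44.4, 23.1 and 27.2 in KO. Of 41 apoptosis genes 10 were higher and 2 lower, 9 lay below 0, and the median was 0.20. Bax, which opens the mitochondrial membrane, had 42.0, 37.3 and 42.6 FPKM in WT and 47.6, 46.8 and 47.3 in KO (0.22 ± 0.07, adjusted p = 0.197). Tnfrsf10b, a death receptor, had 6.23, 6.51 and 6.70 FPKM in WT and 8.44, 8.37 and 8.75 in KO (0.37 ± 0.09, adjusted p = 0.147). Both were narrow within each group. Of 84 cytosolic ribosomal protein genes 24 were higher and 0 lower, 81 lay above 0 and the median was 0.16, and quantile normalization, which gives each library the same distribution of values, took that median to 0.00 (it was 0.10 without E1). Of 37 proteasome genes 5 were higher, with a median of 0.06 (0.03 without F18).

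Differences also varied with the length of the transcript. The tested genes were divided into 5 equal bins by their longest transcript. In the shortest, of 53 to 1433 bases, 15.5% of genes were higher without overlap and 5.93% lower. In the longest, from 4553 bases on, 5.65% were higher and 19.5% lower. The median difference went from 0.05 in the shortest bin through 0.01, −0.03 and −0.06 to −0.09 in the longest. F18 had the steepest slope, with a median over WT of 0.07 in the shortest bin and −0.17 in the longest, E7 went from 0.02 to −0.10, and F19 was nearly flat at 0.01 and −0.01. Among WT libraries E1 went the other way, from −0.02 to 0.04. At 32 weeks the medians of the same bins went from 0.05 to −0.07. Bins by level showed no such grade, with medians between −0.04 and 0.00.

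**Figure D4:**
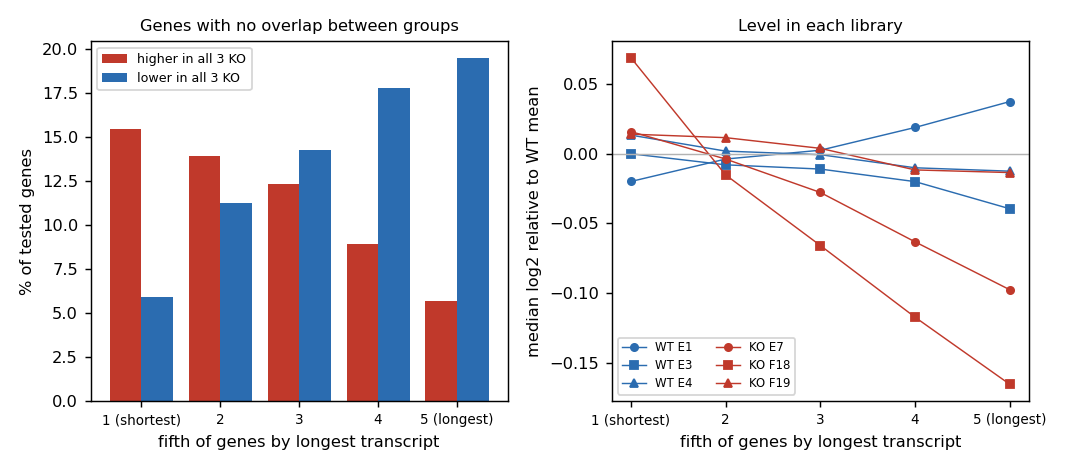
Left, share of tested genes that were higher (red) or lower (blue) in KO without overlap, by bin of longest transcript length; right, median log2 level over the mean of WT for the same bins in each library. The higher share drops from 15.5% to 5.65% and the lower share grows from 5.93% to 19.5%, with the steepest line in F18.

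The libraries of 32 weeks, which come from other animals, gave a second reading of the same genes. There, limma called 2 genes higher (0.0123%) and 0 lower (0.00%), Gm10653 and Mir7067, and 359 genes were higher (2.21%) and 483 lower (2.97%) without adjustment. Without overlap between the groups of that age, 668 genes were higher (4.10%) and 1005 lower (6.17%). Of the 1833 genes higher without overlap at 20 weeks, 81.5% were above 0 at 32 weeks, against 48.4% of all tested genes, and 7.15% were again higher without overlap. Of the 2239 lower genes 71.8% were below 0 at 32 weeks, against 51.3% of all, and 14.6% were again lower without overlap. A single KO library of 32 weeks decided the first share. Without F5 it was 38.4%, against 44.7% of all tested genes in that fit. The share of the lower genes was then 64.0%, against 55.3% of all. F5 stood at 7426 FPKM for S100a8, against 410.2 and 487 in the KO libraries F6 and F27, and the WT library F12 stood at 1998, above F6 and F27, with F1 and F10 at 427 and 271. The mature neutrophil genes summed to 3916 FPKM in F12, 13294 in F5 and 665 to 1061 in the other 4 libraries of 32 weeks. In all, 131 genes were higher and 327 lower without overlap at both ages.

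Median differences of most marrow and nerve lists lay nearer 0 at 32 weeks. Resident macrophage genes were an exception, with 0.12 at 20 weeks and 0.14 at 32 weeks. Mature neutrophil genes had a median of 0.39 at 32 weeks and 2.27 at 20 weeks, and mitosis genes 0.30 and 1.51. Neuron genes went from −0.34 at 20 weeks to −0.13 at 32 weeks, and synaptic genes from −0.44 to −0.10. Interferon-induced genes had the larger median at 32 weeks, 0.53 against 0.38. Scn8a was lower without overlap at both ages, with a difference of −0.41 ± 0.12 at 20 weeks. The difference of these medians between ages was not tested. For single genes it was: limma called 1 gene, Mir8116 (0.00614%), and without adjustment KO minus WT at 20 weeks less KO minus WT at 32 weeks was above 0 in 270 genes (1.66%) and below 0 in 491 (3.02%), 761 in all (4.68%), whatever the sign of either difference.

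**Figure D5:**
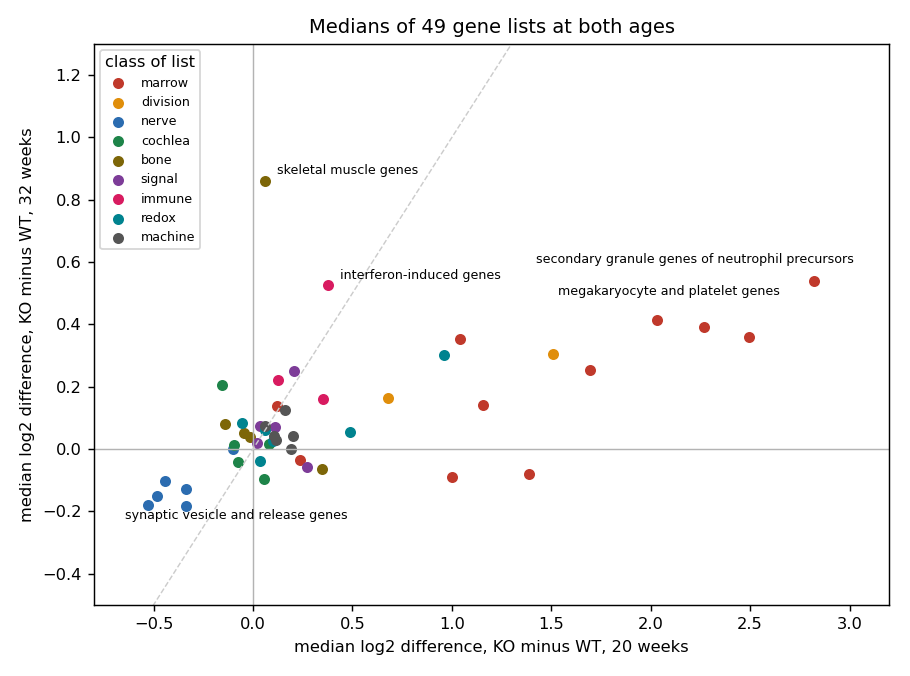
Median log2 difference, KO minus WT, of 49 gene lists at 20 weeks (horizontal) and 32 weeks (vertical), coloured by class of list, with a dashed line of equality. Marrow lists lie to the right and low, apart from resident macrophage genes at 0.12 and T and NK cell genes at 0.24 on the horizontal axis, nerve lists lie to the left of and slightly below 0, and interferon-induced genes lie above the line.

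Genes around Dusp1 separated the groups more often than genes elsewhere. Of 219 tested genes within 5 Mb, 36 were higher and 40 lower without overlap, 34.7%, against 24.8% of the 15864 genes beyond 10 Mb or on other chromosomes and 25.0% of all tested genes. Of those 76 genes, 38.2% also kept their direction without overlap at 32 weeks, whereas 10.8% did among the separated genes elsewhere. Of the 194 genes at 5 to 10 Mb, 44 were higher and 16 lower without overlap, 30.9%, and 8.33% of these kept their direction. Of the 398 genes of chromosome 17 beyond 10 Mb, 23.6% were separated and 13.8% of those kept. The 29 genes kept near Dusp1 include Dusp1 itself, Ergic1, Hs3st6 and Decr2. Spsb3, of a ubiquitin ligase, stood at 30.6, 29.8 and 29.9 FPKM in WT and 22.7, 22.2 and 22.3 in KO, and Telo2, which stabilises large kinases, at 9.58, 8.96 and 9.61 in WT and 6.76, 6.57 and 7.17 in KO. Nthl1, a DNA glycosylase, was higher, at 3.03, 3.28 and 3.94 FPKM in WT and 5.56, 5.04 and 6.37 in KO. The libraries of each group lay close together for Spsb3 and Telo2.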

How the data were processed

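RNA of cochleae in RNAlater (integrity 9.2 to 9.7 over all samples) was read from polyA libraries as single ends of 50 bases. With FastQC 0.10.1, TopHat2 2.0.10, Bowtie 1.0.0, SAMtools 0.1.19 and Cufflinks 2.2.1, per the submitters' processing notes, the authors aligned reads to mm9 and deposited FPKM per gene and library. Many numbers of the deposited FPKM table lacked a decimal point in its right place. Points were put back so that the 3 libraries of a group average to that group's FPKM as Cuffdiff listed it (tolerance 2e-05 of the mean). A single solution existed for 95802 of 95804 gene and group pairs, and Atxn7l1 and Mecom were left out. The Cuffdiff tables also hold the authors' fold changes and p-values, which were not used.

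A single limma fit (limma 3.58.1, R 4.3.3) of the 4 groups with a variance trend took log2(FPKM + 0.5) of genes that averaged 0.5 FPKM or more, because FPKM are not counts and the authors' test needs reads. A fold change on this scale understates that of low genes. The script was tested on simulated data. Dusp1 alone had an exact two-sided permutation test. Lists got counts and medians, with no set test. Positions come from the deposited gene annotation of mm9. Tables and figures used Python 3.11.15 with NumPy 2.4.6, pandas 2.3.3, SciPy 1.17.1 and Matplotlib 3.10.9.

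Genes were named by rule: Dusp1, the genes passing the adjusted threshold, the 10 of lowest p and the 10 of largest difference in each direction among non-overlapping genes averaging 5 FPKM or more, and examples and lowest p of each list. The rule named 294 genes, of which a part is printed. The comparison and the lists were chosen with earlier results of these data known. The fat and cerebellar lists, and genes given only as FPKM, were chosen after values were seen. Replicates are animal codes, and the sources used here do not explain their letter E or F. Some genes of the lists are counted but not reported by name here.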

Additional observations from a re-analysis of the deposited data

Results flagged for a closer look

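The difference between KO and WT differed between ages for 1 gene by limma's test of the interaction. For Mir8116, the difference at 20 weeks less that at 32 weeks was 4.83 ± 0.52 on the log2 scale. WT libraries were listed at 0, 0 and 0 FPKM at 20 weeks and at 22.4, 12.2 and 12.7 at 32 weeks, whereas KO stood at 36.1, 39.7 and 46.5 FPKM at 20 weeks and at 74.5, 52.9 and 22.6 at 32 weeks. KO lay above WT in every library at both ages, and the change with age was in the WT libraries at 0. The size of the value rests on the pseudocount, and Mir760 was likewise at 0 in all WT libraries of 20 weeks and at 5.38, 15.2 and 14.1 FPKM in those of 32 weeks.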

How the results depend on the processing

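Of 24 settings, 2 (E1 and E7 left out together, and small RNA genes left out) were chosen after seeing the data. Counts of genes at 20 weeks were recomputed under 24, the count of genes that differ between ages under 23, list medians under 22, medians of length bins under 16 and shares of genes with the same sign at 32 weeks under 15. Medians moved by more than the spread between libraries in 31 of 50 lists under at least 1 setting, most often with the letter of the animal code as a covariate. That letter varies only within KO of 20 weeks, so this fit sets E7 alone against the mean of WT. Its counts of genes given below therefore rest on E7 alone for KO of 20 weeks. No conclusion is drawn from them. Counts of genes are by limma, and the cause of a change was not tested.

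The 4 genes higher after adjustment became 7 with median ratio size factors, 1 without small RNA genes, and 4 to 9 when a library was left out. The 7 lower genes became 2 with a filter of any mean above 0, 11 with median ratio size factors and 1 without a variance trend. They became 1 with the groups of 20 weeks alone, 3 with Xist as a covariate and 1 without E1 and E7. Without small RNA genes 0 were lower (1606 unadjusted), and 0 to 7 were lower when a library was left out. Of unadjusted calls, the 1339 higher became 348 without E1 and E7 and 639 (without E7) to 1614 when a library was left out, and the 1614 lower became 780 with the letter, 651 without E1 and E7, and 911 (without F18) to 1800 when a library was left out (1029 without E1 and 975 without E7).

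The 1 gene that differed between ages became 2 with a pseudocount of 0.1 and 2 without E1 and E7, 0 with a pseudocount of 1, a filter of any mean above 0, size factors, no trend, Xist or no small RNA genes, 13 with the letter, and 0 to 4 when a library was left out. The median of the shortest transcripts, 0.05, became 0.000674 with quantile normalization and 0.0202 to 0.0656 when a library was left out, and that of the next bin, 0.01, became −0.0243 with quantile normalization and 0.0322 with size factors. The shares of genes with the same sign at 32 weeks ranged from 38.4% to 88.5% for higher genes when a library was left out. For lower genes they ranged from 64.0% to 73.3%. Over all tested genes the same fits gave 44.7% to 49.8% above 0 and 50.2% to 55.3% below 0.

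No paired analysis was possible because animal codes are shared by no groups. Depth in reads is unknown, so no counting error can be given, and 3 libraries a group limit the precision.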
